A study of Mus musculus with 13 samples.

Results

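The genes described are 9 structural proteins of central nervous system myelin, Mbp, Mag, Mog, Mobp, Cnp, Cldn11, Mal, Opalin and Omg, chosen by name from the 55401 genes of the deposited annotation. All 9 had 1 row each, and all 9 were among the 14985 genes that passed the filter on low counts and were tested. They were followed in bulk RNA-seq of the snap-frozen brain hemisphere of 13 male C57BL/6J mice, 1 library per mouse. The 5 control (CTL) mice received control chow for 6 weeks. The 4 cuprizone (CPZ) mice received chow with 0.3% cuprizone, a copper chelator toxic to oligodendrocytes, for 4 weeks. The 4 recovery (RCV) mice received 0.3% cuprizone for 4 weeks and then control chow for 2 weeks. By the paper, CPZ tissue was collected at week 4 and CTL and RCV tissue at week 6. Time in the study therefore cannot be told apart from feeding in comparisons of CPZ with CTL or RCV. The labels give ages of 6 to 8 weeks. The paper gives a somewhat older age. Libraries held between 4605100 and 8197289 estimated counts, with medians of 6545158 in CTL, 7468880.5 in CPZ and 5783463 in RCV. Summed CPM of 10 neuronal markers lay between 5381 and 6704 in all libraries, and none of the neuronal markers was at 0.

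Myelin is the multilayered membrane that oligodendrocytes wrap around axons. In its compact layers the membranes are pressed together by basic proteins on their cytoplasmic faces, while channels of cytoplasm and the layer next to the axon hold a different set of proteins. Cuprizone feeding kills mature oligodendrocytes (MOL), and precursors (OPC) replace them. The paper states that loss and repair of myelin may go on together during feeding, and repair continues once the compound is withdrawn. In bulk tissue, fewer cells of a type and less RNA per cell cannot be told apart.

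After 4 weeks of cuprizone, 8 of the 9 genes fell relative to CTL, by between 0.61 (Cnp) and 2.43 (Mal) on the log2 scale, and Omg did not pass the test. The median log2 fold change of the 9 was -1.48, against -0.02 over all genes tested. A gene was called where its adjusted p lay below 0.05, from the quasi-likelihood test of edgeR after Benjamini-Hochberg correction for all 14985 genes. Of all genes, 2.5% were called lower and 7.66% higher in this comparison. For 7 of the 9, every CPZ library lay below every CTL library in log2-CPM, which held for 4.86% of all genes. After 2 weeks of recovery, 0 of the 9 were called against CTL, 0 had an unadjusted p under 0.05 and 0 were called by DESeq2 or limma. In this comparison 0.0133% of all genes were called lower and 0.36% higher.

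The basic proteins of compact myelin were the most abundant members. Mbp encodes myelin basic protein, which holds the cytoplasmic membrane faces together. Its TPM, a level scaled to transcript length and library size, was 3269.7, 2992, 3973, 2196 and 3002 in the 5 CTL libraries. It was 1014, 823, 956 and 1456 in the CPZ libraries and 3593, 4749.8, 2975 and 2777 in the RCV libraries. All CPZ libraries were below all others, and the CTL and RCV libraries overlapped. The log2 fold change of CPZ against CTL was -1.48 ± 0.22 (SE, adjusted p = 0.000782), a level 2.79-fold lower with a 95% interval of the fold of 0.255 to 0.503. Mobp, a small basic protein of the same membrane face found in the central nervous system, had a TPM of 878, 805, 949, 464 and 723 in CTL. Its TPM was 298, 227, 266 and 361 in CPZ and 890.4, 1134, 709 and 665 in RCV. It fell by 1.43 ± 0.24 on the log2 scale (adjusted p = 0.00194), and CPZ libraries lay below all others without overlap.

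**Figure D1:**
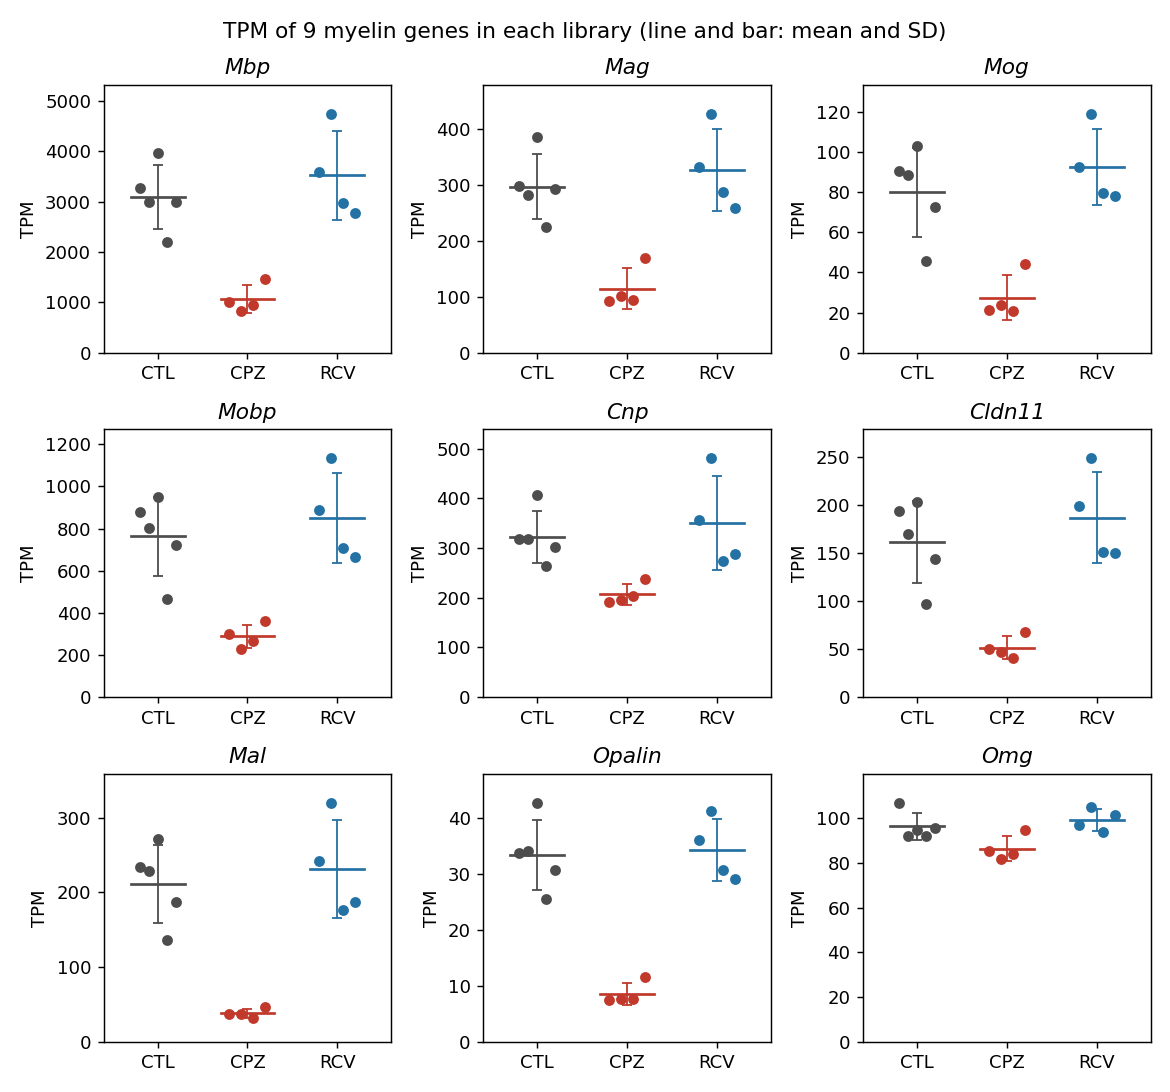
TPM (linear axis from 0) of each of the 9 genes in the 5 CTL, 4 CPZ and 4 RCV libraries, 1 point per library, with a line and bar for the mean and SD of the group. CPZ points sit below all CTL points for every gene but Omg, narrowly for Mog (44.2 in the highest CPZ and 45.6 in the lowest CTL library), and CTL and RCV points overlap for all 9.

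Genes for proteins at the edges and junctions of the sheath fell as well. Mag encodes a sialic acid-binding adhesion protein of the layer that faces the axon. Its TPM was 298, 282, 387, 225 and 294 in CTL, 92.1, 102, 94.3 and 170.0 in CPZ and 333, 428, 288 and 259 in RCV. CPZ libraries were below all others, with CPZ replicate 4 apart from the other CPZ libraries. Mag fell by 1.29 ± 0.24 on the log2 scale (adjusted p = 0.00323). Mog encodes an immunoglobulin-family protein of the outermost surface, and its TPM was 90.4, 88.4, 103, 45.6 and 72.6 in CTL. Its TPM was 21.3, 23.7, 20.6 and 44.2 in CPZ and 92.6, 119, 79.8 and 78.3 in RCV. CPZ replicate 4 and CTL replicate 4 were almost level in TPM and overlapped in log2-CPM, so Mog was called (-1.51 ± 0.29, adjusted p = 0.00472) with groups that touch. Cldn11 encodes a claudin that forms the tight junctions between myelin layers. It had a TPM of 193, 169.7, 204, 97.0 and 144 in CTL, 50.4, 47.0, 41.1 and 68.1 in CPZ and 198, 249, 151 and 149.5 in RCV. It fell by 1.62 ± 0.25 on the log2 scale (adjusted p = 0.00105), with no overlap between CPZ and the other groups.

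The 2 largest falls were those of Mal and Opalin. Mal encodes a proteolipid of lipid rafts that takes part in membrane sorting. Its TPM was 234, 228, 271, 136 and 187 in CTL, 36.8, 37.3, 31.1 and 46.0 in CPZ and 242, 320.3, 176 and 188 in RCV. The highest CPZ library was thus well below the lowest of any other group. The log2 fold change was -2.43 ± 0.25 (adjusted p = 4.64e-05), 5.39-fold lower with a 95% interval of the fold of 0.126 to 0.273. Opalin encodes a transmembrane sialoglycoprotein of oligodendrocytes and was the least abundant member. Its TPM was 33.7, 34.0, 42.7, 25.4 and 30.7 in CTL, 7.48, 7.59, 7.57 and 11.5 in CPZ and 36.0, 41.2, 30.7 and 29.0 in RCV. It fell by 1.96 ± 0.17 on the log2 scale (adjusted p = 2.08e-06), the smallest p of the 9, at a level 3.90-fold lower.

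Cnp and Omg changed least. Cnp encodes cyclic nucleotide phosphodiesterase, a protein of non-compact myelin that keeps cytoplasmic channels open. Its TPM was 317.5, 317.9, 407, 263 and 303 in CTL, 191, 195, 203 and 238 in CPZ and 357, 481, 274 and 289 in RCV. The CPZ libraries were below all others, and Cnp fell by 0.61 ± 0.17 on the log2 scale (adjusted p = 0.0349), 1.53-fold. That call was lost without any one of CTL replicates 1, 2, 3 and 5 or CPZ replicates 1, 2 and 3 (adjusted p = 0.0506 to 0.124), and with no filter on low counts (adjusted p = 0.121), while the log2 fold change stayed between -0.71 and -0.51. Omg encodes oligodendrocyte-myelin glycoprotein, a membrane-anchored ligand of the Nogo receptor that neurons also make. Its TPM was 107, 92.2, 94.8, 92.0 and 95.8 in CTL, 85.2, 81.7, 84.1 and 94.7 in CPZ and 96.9, 105, 93.9 and 101 in RCV. CPZ replicate 4 lay within the CTL range and the other CPZ libraries below it. The log2 fold change was -0.13 ± 0.067 (adjusted p = 0.288), with a 95% interval from -0.27 to 0.01, so a fold below 0.828 lay outside that interval.

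**Figure D2:**
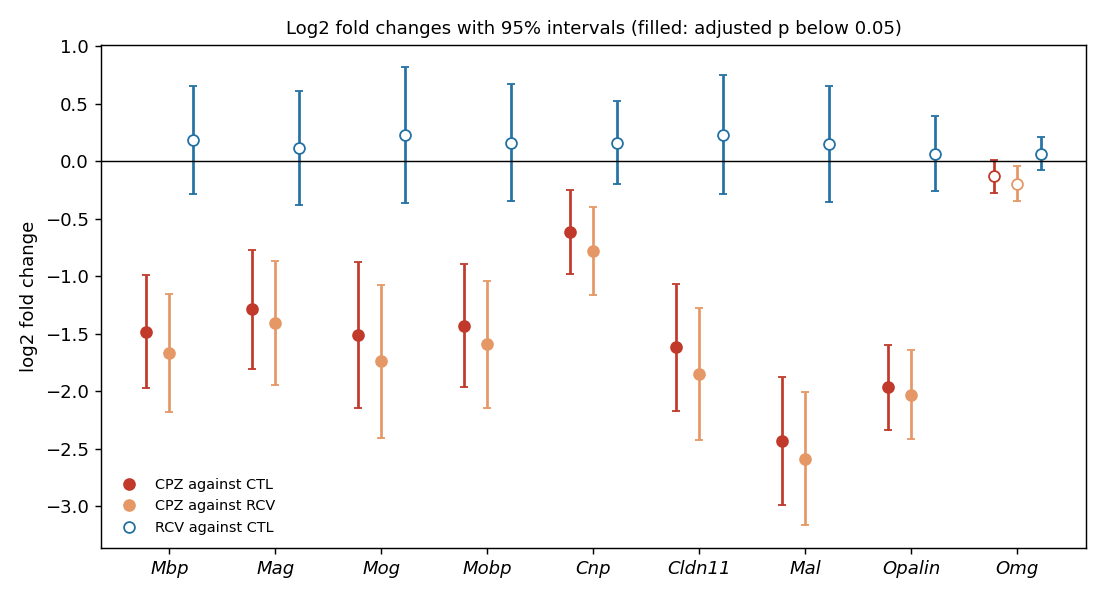
Log2 fold changes (y axis) of the 9 genes in the 3 comparisons, with 95% intervals as bars and filled points for adjusted p below 0.05. The 8 filled CPZ pairs run from -0.61 (Cnp) to -2.43 (Mal) against CTL and from -0.78 to -2.58 against RCV, and all RCV against CTL points are open and lie between 0.07 and 0.23.

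Comparing CPZ with RCV asks how far levels differ between the end of cuprizone feeding and the recovery. It uses the same CPZ libraries as the comparison above and is no independent repeat of it. The same 8 genes were called lower in CPZ, against 1.88% of all genes called lower and 5.13% called higher. For those 8, every CPZ library was below every RCV library, which held for 4.93% of all genes. Log2 fold changes were -2.58 ± 0.26 for Mal (adjusted p = 0.000299), -2.03 ± 0.18 for Opalin (4.23e-05) and -1.85 ± 0.26 for Cldn11 (0.00134). They were -1.74 ± 0.30 for Mog (0.00472), -1.67 ± 0.23 for Mbp (0.00114), -1.59 ± 0.25 for Mobp (0.00268) and -1.40 ± 0.25 for Mag (0.00472). Cnp had -0.78 ± 0.18 (adjusted p = 0.018) and lost its call without CPZ replicate 1 or 2 (adjusted p = 0.0722 and 0.0593) or with no filter on low counts (0.0704). Omg had -0.20 ± 0.071, with an unadjusted p of 0.0147 in this model and an adjusted p of 0.129. Without CPZ replicate 4 the Omg value was -0.26 and passed the test (adjusted p = 0.0402).

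Between RCV and CTL, log2 fold changes of the 9 genes lay between 0.07 (Omg and Opalin) and 0.23 (Cldn11 and Mog), with adjusted p from 0.978 to 0.996 and overlapping libraries for all 9. The median was 0.16, against -0.0044 over all genes tested. The 95% intervals reached from -0.38 at the lowest (Mag) to 0.82 at the highest (Mog), so no RCV level below 0.771 or above 1.76 times that of CTL lay inside any of them. For Omg the interval was narrower, from -0.08 to 0.21. Without RCV replicate 2, the values of Mag, Mobp, Cnp, Mal and Opalin turned slightly negative, between -0.05 and -0.02.

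The place of each RCV library between CTL and CPZ was expressed as the share of the CPZ change remaining, where 0 is the CTL mean and 1 the CPZ mean in log2-CPM. It was computed for the 8 genes called lower. The mean over the 4 RCV libraries was -0.035 ± 0.118 (SD, n = 4) for Opalin, -0.064 ± 0.171 for Mal and -0.086 ± 0.255 for Mag. It was -0.120 ± 0.267 for Mobp, -0.122 ± 0.233 for Mbp and -0.156 ± 0.222 for Cldn11. Mog had -0.171 ± 0.184 and Cnp, whose CPZ change was the smallest, -0.234 ± 0.600. Each mean was within 1 SD of 0, and each was below 0. That SD is the spread of the 4 RCV libraries, not the error of their mean, and leaves out the spread of CTL and CPZ. RCV replicates 1 and 2 lay below 0, above the CTL mean level, for 8 of 8 genes, with medians of -0.175 and -0.429. RCV replicates 3 and 4 lay above 0 for 7 of 8 genes, with medians of 0.0159 and 0.0962. The highest single share was 0.257 (Cnp in RCV replicate 3), so no RCV library was near the CPZ mean for any of these genes.

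**Figure D3:**
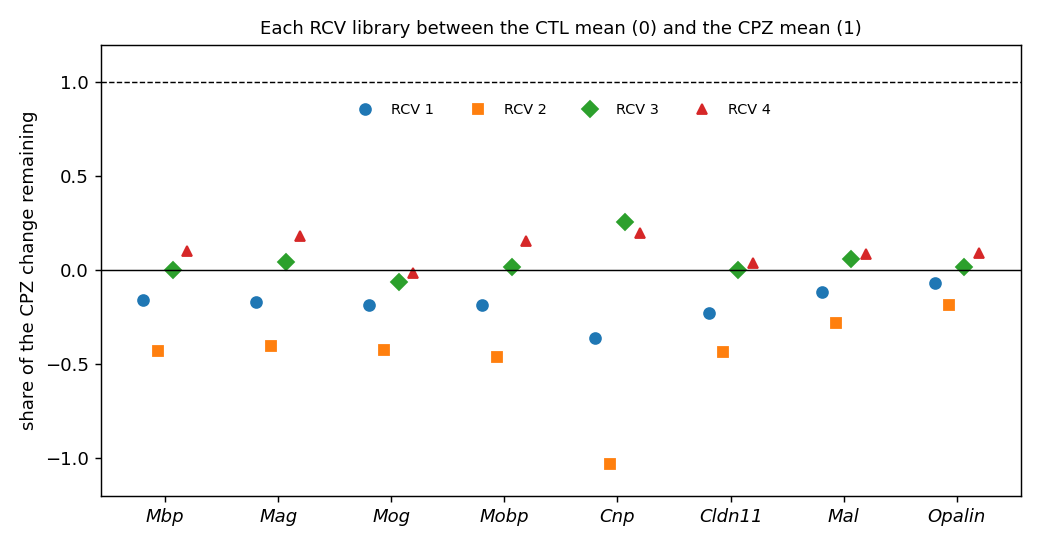
Share of the CPZ change remaining (y axis, no unit, 0 for the CTL mean and 1 for the CPZ mean) in each of the 4 RCV libraries for the 8 genes that fell. All points lie between -1.03 and 0.257, and the 4 libraries keep nearly the same order from gene to gene.

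The members spanned a wide range of levels per length, and their order was nearly fixed. In CTL, mean TPM was 3087 ± 637.8 (SD, n = 5) for Mbp, 763.6 ± 187.6 for Mobp, 321.6 ± 52.7 for Cnp and 297 ± 58.1 for Mag. It was 211 ± 51.7 for Mal, 161.5 ± 42.8 for Cldn11, 96.3 ± 6.19 for Omg, 80.07 ± 22.1 for Mog and 33.3 ± 6.28 for Opalin. Mbp ranked first and Opalin last in all 13 libraries. The neighbours that exchanged places were Omg and Mog, in 1 CTL and 1 RCV library, and Cnp and Mag, in 1 RCV library, so the order within these pairs is not set beyond the spread. In all 4 CPZ libraries Omg ranked 5 and Mal 7, whereas in every RCV library and every CTL library Mal ranked 5 and Omg 7 or 8. Summed over the 9, TPM was 5051 ± 1043 in CTL, 1884 ± 417 in CPZ and 5695 ± 1407 in RCV, or 0.505%, 0.188% and 0.57% of all TPM. Mbp made up 59.7% to 62.0% of that sum in CTL, 53.3% to 58.5% in CPZ and 61.2% to 62.3% in RCV.

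To see whether members changed unequally within the same library, each was expressed as a percent of Mbp TPM. Cnp stood at 10.5 ± 0.873% (SD, n = 5) in CTL, 20.04 ± 3.15% (n = 4) in CPZ and 9.92 ± 0.504% (n = 4) in RCV. Omg had 3.22 ± 0.643%, 8.41 ± 1.42% and 2.93 ± 0.616%. Both were higher in every CPZ library than in any CTL or RCV library. Mal went the other way, with 6.81 ± 0.617% in CTL, 3.64 ± 0.624% in CPZ and 6.54 ± 0.406% in RCV, and Opalin had 1.08 ± 0.0615%, 0.810 ± 0.0787% and 0.986 ± 0.0804%. For these 4 the CPZ and CTL libraries did not overlap, and the exact two-sided permutation test gave p = 0.0159, the smallest that 4 against 5 libraries allow. Adjusted over the 24 ratio tests the value was 0.0857, so none passed. With so few libraries, a ratio at the smallest possible p could pass only if many more of the 24 reached it too. The adjusted values therefore cannot decide whether these members changed unequally. The differences in log2 ratio were 0.92 for Cnp, 1.39 for Omg, -0.91 for Mal and -0.42 for Opalin. Mbp itself had a log2 fold change of -1.48 in CPZ against CTL, so a gene that fell less than Mbp rises in this ratio. For Omg, with a log2 fold change of -0.13, the rise largely restates the fall of Mbp. The share of all genes whose ratio to Mbp separates the groups was not computed.

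The other 4 members held closer to Mbp in CPZ. Mobp stood at 24.6 ± 2.42% of Mbp TPM in CTL and 27.4 ± 1.90% in CPZ (exact permutation p = 0.0794, adjusted 0.190). Mag had 9.66 ± 0.417% and 10.8 ± 1.54% (exact p = 0.222), Mog 2.56 ± 0.337% and 2.54 ± 0.485% (exact p = 0.905) and Cldn11 5.19 ± 0.614% and 4.91 ± 0.600% (exact p = 0.508). The libraries of the groups overlapped for all 4. Between CPZ and RCV, Cnp, Omg, Mal and Mobp reached the smallest exact p of 0.0286 with differences in log2 ratio of 1.00, 1.53, -0.86 and 0.18, again 0.0857 after adjustment. Between RCV and CTL the lowest exact p was 0.0952, for Opalin.

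**Figure D4:**
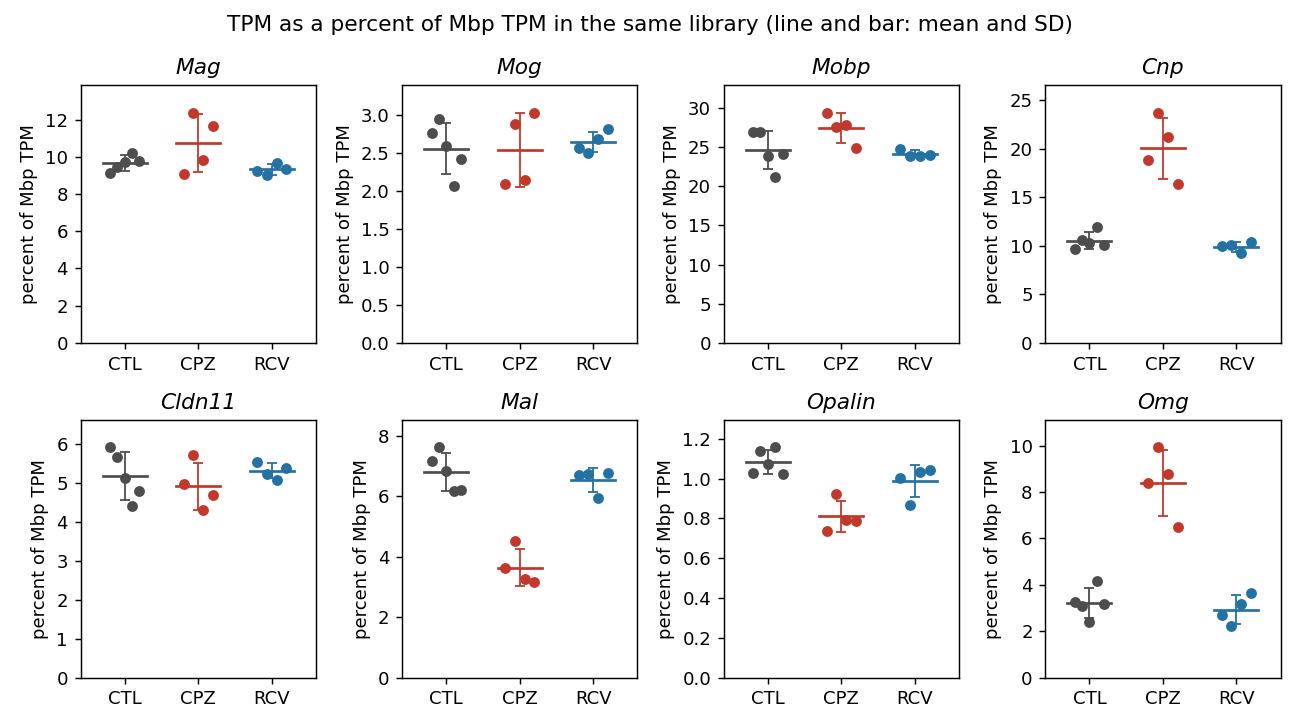
TPM of 8 genes as a percent of Mbp TPM in the same library (y axis, from 0), 1 point per library, with the mean and SD of each group. CPZ points for Cnp (16.4% to 23.7%) and Omg (6.51% to 9.93%) lie above all others, and those for Mal (3.16% to 4.53%) below all others.

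Within groups the members moved together from library to library. CTL replicate 4 was lowest of its group in log2-CPM for 9 of 9 genes, with a median deviation of -0.48 from the group mean, and CTL replicate 3 was highest for 8 of 9. CPZ replicate 4 was highest of its group for 9 of 9 (0.45), and RCV replicate 2 for 9 of 9 (0.45). The other 23 proteins of myelin, summed, had the same libraries at these ends, with CPM of 3333 in CTL replicate 4, 2985 in CPZ replicate 4 and 5736 in RCV replicate 2, against group medians of 4173, 2448 and 4498. The cause of these differences between mice was not tested. Summed CPM of microglial markers in CPZ replicates 1 to 4 was 2532, 2256, 1201 and 1541, highest in replicate 1. In RCV replicates 1 to 4 it was 609.7, 712.6, 527.4 and 676.9, highest in replicate 2, as for the members. In CTL replicates 1 to 5 it was 361.5, 420.1, 348.7, 365.5 and 352.8, lowest in replicate 3, where most members were highest. Any relation to the members was not tested. With CPZ replicate 4 left out, Mag had a log2 fold change of -1.55 and Mog of -1.86. In CPZ against CTL, leaving out CPZ replicate 4 or CTL replicate 4 gave 8 called members each, and in RCV against CTL 0 were called without RCV replicate 2.

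**Figure D5:**
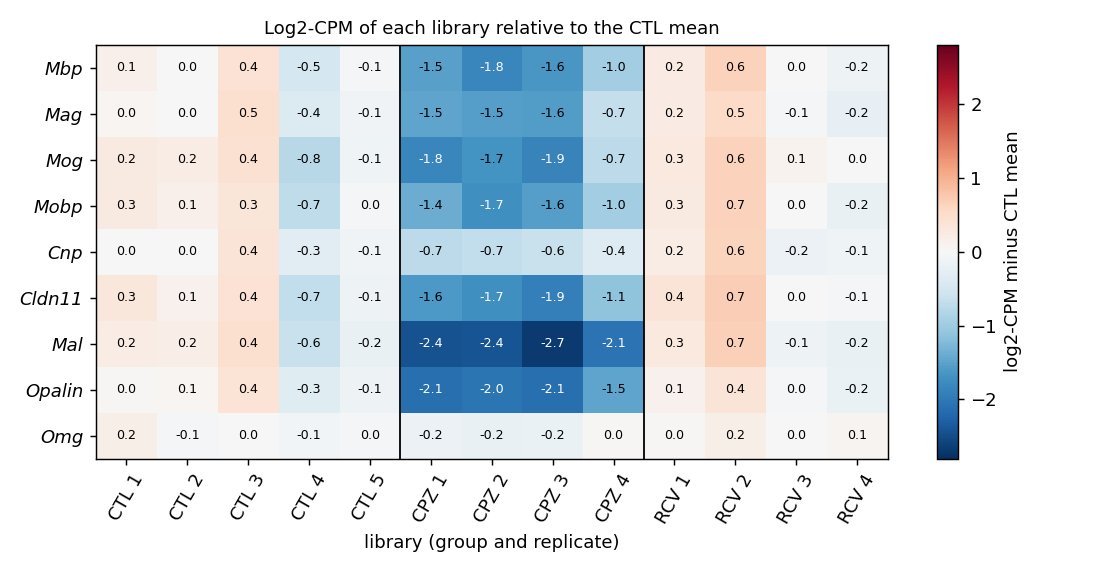
Log2-CPM of each gene in each of the 13 libraries minus the CTL mean of that gene (colour and printed value). CPZ columns are negative for 8 of 9 rows, deepest in the Mal row, and CPZ replicate 4 is the palest of its group in every row.

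The genes whose library profile was most like the mean profile of the 9 were sought among the 11083 genes whose mean log2-CPM reached 3. Likeness was the root mean square difference of centred log2-CPM over the 13 libraries. The nearest were Tspan2 (0.146), a tetraspanin of oligodendrocytes, and Itgb4 (0.167), an integrin beta chain. The members themselves ranged from 0.091 (Mbp) through 0.252 (Opalin), 0.375 (Cnp) and 0.481 (Mal) to 0.635 (Omg). Thus 480 genes outside the list were closer to the mean profile than Omg, and 77 closer than Mal.

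Of 23 other proteins of compact and non-compact myelin, 14 fell and 1 rose in CPZ against CTL, with a median log2 fold change of -0.59. The furthest fall was that of Ninj2 (-2.26 ± 0.55, adjusted p = 0.0123), which encodes an adhesion protein. Cd9, a tetraspanin that microglia and astrocytes also make, rose by 1.60 ± 0.18 (adjusted p = 5.76e-05). Sept2, with 0.19, and Evi2a, with 0.10, did not pass (adjusted p = 0.637 and 0.82). Against RCV, 14 were lower and 1 higher in CPZ. Between RCV and CTL 1 of 23 was called, Sirt2, a deacetylase of the inner myelin tongue, higher by 0.41 ± 0.080 (adjusted p = 0.0372), and that call was lost under limma and in several other settings.

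Markers of other cells moved beside the members. Of 12 microglial genes, 12 rose in CPZ against CTL with a median of 2.55, from P2ry12 (0.97) to Cd68 (3.72), and their summed CPM was 349 to 420.1 in CTL, 1201 to 2532 in CPZ and 527 to 713 in RCV. Of 8 astrocyte genes 5 rose, led by Gfap at 2.43, with summed CPM of 4181 to 4599, 4974 to 6013 and 4944 to 5568. The lowest of the 8, Gja1 at -0.09, was not called (adjusted p = 0.556). Of 10 neuronal genes 0 were called in any comparison and 0 had an unadjusted p under 0.05, with summed CPM of 5746 to 6704, 5553 to 6341 and 5381 to 6428. OPC genes summed to 464 to 540.4, 472 to 530.1 and 486 to 539 CPM, and 1 of 6 rose, the proteoglycan Cspg4 (0.45, adjusted p = 0.0396). Their median was 0.02, and the lowest, C1ql1 at -0.35, was not called (adjusted p = 0.456). Genes of new oligodendrocytes summed to 207.5 to 380.0, 316 to 388 and 207.4 to 434, and 1 of 6 rose, the calcium-release channel Itpr2 (0.57, adjusted p = 0.000305). The lowest of these 6, Enpp6 at -0.14, was not called (adjusted p = 0.75). The part of these cells in the fall of the members was not tested.

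Lists for peripheral nerve, meninges and choroid plexus were followed in the same way. Peripheral nerve myelin genes summed to 114 to 128.5 CPM in CTL, 123 to 148 in CPZ and 114.4 to 139.9 in RCV, with 3 of 6 tested. Pmp22 was higher in CPZ than in CTL (0.68, adjusted p = 0.00525). Pmp2 did not pass the filter on low counts, so its 0 counts in CPZ and RCV show no difference between groups. Meningeal genes summed to 87.3 to 182.5, 74.8 to 177 and 91.7 to 145, with 0 of 6 called in CPZ against CTL and 1 lower in CPZ against RCV, the collagen Col1a1 (-1.89, adjusted p = 0.0396). Choroid plexus genes varied widely within groups, at 417 to 2746, 616 to 2341 and 13.4 to 1432, and 0 of 6 were called in any comparison.

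Promoter sequence was examined because the members moved together. RefSeq windows on GRCm38.p6 were found for 7 of the 9 members, all but Mbp and Omg. The 250 bases before each start were searched on both strands. The letters searched were CTGGCAC and CTGGTAC, of the kind bound by MYRF, and ACAAAG and ACAATG, of the kind bound by SOX factors such as SOX10, both regulators of myelin genes. The MYRF-type letters were in 3 of the 7 (Mag, Mog and Cnp) and in 5.93% of all 32851 windows. The SOX-type letters were in 4 of the 7 (Mag, Mobp, Cnp and Opalin) and in 25.2% of all windows. Mobp held 6 of them, the most of any member, and its own window was the only 1 of 32851 with at least 6. That number was taken from the member with the most matches after the search, so its rarity is no test. A match is a description of letters and not a bound site. Mal and Opalin are shown for the largest falls, Cnp for the smallest fall and Mobp for its repeated letters, each 5′ to 3′ on the strand of the gene, with matches on either strand in capitals. Printing stops where the GENCODE gene begins, which for Cnp and Mobp lies upstream of the RefSeq start used in the search, so 215 of their 250 searched bases are shown, and these hold all of their matches. Mal is chr2:127656696-127656945 on the minus strand, Opalin chr19:41077114-41077363 on the minus strand, Cnp chr11:100574689-100574903 on the plus strand and Mobp chr9:120149492-120149706 on the plus strand.
Mal: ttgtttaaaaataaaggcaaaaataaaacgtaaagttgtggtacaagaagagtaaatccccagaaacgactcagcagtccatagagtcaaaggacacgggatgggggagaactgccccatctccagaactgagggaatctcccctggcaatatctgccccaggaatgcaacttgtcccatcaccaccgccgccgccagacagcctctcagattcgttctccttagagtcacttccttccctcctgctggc
Opalin: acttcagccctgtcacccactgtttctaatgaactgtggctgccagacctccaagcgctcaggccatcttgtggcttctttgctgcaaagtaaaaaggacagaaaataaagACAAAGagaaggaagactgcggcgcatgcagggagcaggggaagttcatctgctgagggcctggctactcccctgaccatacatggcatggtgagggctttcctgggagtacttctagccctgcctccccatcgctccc
Cnp: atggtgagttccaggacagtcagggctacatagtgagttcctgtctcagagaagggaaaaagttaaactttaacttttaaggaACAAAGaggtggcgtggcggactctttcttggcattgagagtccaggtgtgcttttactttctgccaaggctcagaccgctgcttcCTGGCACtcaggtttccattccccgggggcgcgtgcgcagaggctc
Mobp: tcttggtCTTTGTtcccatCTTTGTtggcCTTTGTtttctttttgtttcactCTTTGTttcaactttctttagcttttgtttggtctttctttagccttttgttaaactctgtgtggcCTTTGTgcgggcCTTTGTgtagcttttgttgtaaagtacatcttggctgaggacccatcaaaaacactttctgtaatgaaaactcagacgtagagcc

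Mal and Cldn11 had neither set of letters in their windows, and Mag and Cnp had both. Mog had only the MYRF-type letters, and Mobp and Opalin only the SOX-type letters. A relation between the letters and the size of the fall was not tested. The absence of a match says only that these letters are not in the window searched.

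The ratio of estimated count to TPM holds the mean length of the transcripts on which a gene was counted, a readout apart from its level. It was set relative to the library constant over 6436 genes with a TPM above 20 and given as a percent of the CTL mean. For Mbp, which has 16 annotated transcripts, it was 99.4% to 100.9% in CTL, 101.2% to 103.2% in CPZ and 98.0% to 98.6% in RCV, with no overlap among the 3 groups. In CPZ against CTL, 5.81% of the 6436 genes had groups without overlap. The exact two-sided permutation p was computed only for members whose groups did not overlap. It could then only be the smallest possible (0.0159 for CPZ against CTL, not adjusted), so it adds nothing to the separation. The differences of 2.07% and -1.7% from CTL are small beside the change in level. For the other members CPZ overlapped with CTL and with RCV. Omg, with 1 annotated transcript, differed by 0.235% between RCV and CTL, also without overlap. Groups can thus separate in this readout where no other transcript is annotated. The share of all genes without overlap was counted only for CPZ against CTL, so no such share stands beside the separations that involve RCV.

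In the GENCODE M21 annotation on GRCm38, which holds 98.1% of the gene identifiers of the files, Mag is on chromosome 7 (30899176 to 30914873), Mog on 17 (37010743 to 37023398) and Mobp on 9 (120149707 to 120181484). Cnp is on chromosome 11 (100574904 to 100591729), Omg on 11 (79500982 to 79504084) and Cldn11 on 3 (31149920 to 31164324). Mal is on chromosome 2 (127633226 to 127656695), Opalin on 19 (41061710 to 41077113) and Mbp on 18 (82475146 to 82585637). Counts were summed over whole genes. Omg lies within Nf1 on the opposite strand, and Cnp overlaps Dnajc7 on the opposite strand. Without a statement that strand was used in counting, reads in the shared stretches cannot be assigned with certainty. Nf1 had 741 to 1279 counts and a log2 fold change of -0.03 in CPZ against CTL (adjusted p = 0.823), and Dnajc7 had 805 to 1283 counts and -0.0044 (adjusted p = 0.98). Gm38642, Gm22388 and Rpl21-ps8, which overlap Mobp, Mog and Mbp, had at most 8, 1 and 4 counts in any library.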

How the data were processed

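The 13 libraries were sequenced by the authors with the Kapa mRNA HyperPrep kit and 50-base paired ends and processed with the RNASequest pipeline. The submitters' processing notes name STAR, RSEM and the mm10 build, with no role or version given. The authors deposited an estimated count per gene and library, not scaled to library size, and TPM, scaled to transcript length and library size. Non-whole counts occurred in 5375 of 55401 genes, and all were rounded. The 92 spike-in identifiers held 0 counts. Groups came from the treatment field, and RCV titles begin with "Veh". The 5, 4 and 4 libraries match the numbers in a figure legend of the paper, while its methods state fewer mice per group.

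Low counts were removed with filterByExpr. All 13 libraries were fitted together in edgeR 4.0.16, using TMM scaling, the quasi-likelihood F test in its robust form, Benjamini-Hochberg adjustment and a threshold of 0.05. Log2-CPM used a prior count of 2. Ratios were compared by permuting libraries exactly, two-sided. The test was also run on counts simulated from the model it assumes, with the spread estimated from these data. That outcome is not given here and lends the calls no support. Alternatives were DESeq2 1.42.0, DESeq2 size factors, limma 3.58.1 (voom, and log2 TPM with a pseudocount of 1 or 0.1, with a TPM of at least 1 in 4 libraries or no filter), no count filter, at least 10 counts in every library, only the groups compared, the replicate number as a block and each library left out. R 4.3.3, Python 3.11.15 and matplotlib 3.10.9 were used.

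The members and lists were chosen with earlier results of these data known. Named are all members, the 3 lowest and 3 highest of the other myelin proteins, the lowest and highest of each other list, genes overlapping a member and the 3 nearest profiles, some of which are not reported here. Sirt2, Pmp22 and Col1a1 were named after their values were seen, and the promoter letters were chosen with results known. Labels give 1 mouse per library, so p-values measure the spread between mice.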

Additional observations from a re-analysis of the deposited data

Results flagged for a closer look

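Of 59 groups of libraries examined, 6 held a library farther from the rest than Dixon's 95% limit. Chance gives about 1 in 20 for a single group. The groups reuse the same libraries and hold genes that moved together, so they are not independent and the count cannot be set against that rate. In TPM, CPZ replicate 4 stood above the other CPZ libraries for Mag (170.0, others 92.1 to 102.0), Mog (44.2, others 20.6 to 23.7) and Opalin (11.5, others 7.48 to 7.59). CTL replicate 1 stood above the other CTL libraries for Omg (107.0, others 92.0 to 95.8). In percent of Mbp TPM, RCV replicate 1 was high for Mobp (24.8, others 23.8 to 23.9) and RCV replicate 3 low for Mal (5.93, others 6.72 to 6.76).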

How the results depend on the processing

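Members called numbered 6 to 8 in CPZ against CTL, 0 in RCV against CTL and 7 to 9 in CPZ against RCV over 23 alternatives. Of 207 single-gene values per comparison, 197, 201 and 202 kept their direction and call. The replicate numbers did not pair the libraries (12 same-numbered pairs, r from -0.20 to 0.14, 3 above 0.1). With the number as a block, 6 and 7 members were called in CPZ against CTL and CPZ against RCV, Mog (adjusted p = 0.0526) and Cnp (0.118) losing the first call and Cnp (0.0832) the second. With the block, other myelin proteins called numbered 11, 0 and 9. The single RCV against CTL call among them became 0 under limma-voom, limma on log2 TPM (both pseudocounts and no filter), at least 10 counts and only the groups compared, and 0 to 1 with libraries left out. CPZ against RCV gave 9 with limma on unfiltered log2 TPM, and 9 to 16 with libraries left out. With libraries left out, RCV against CTL log2 fold changes ranged from -0.0375 to 0.2484 for Mag, -0.0225 to 0.275 for Mobp, -0.0249 to 0.2648 for Cnp, -0.0487 to 0.2709 for Mal and -0.0383 to 0.1737 for Opalin. Log2 ratios to Mbp ranged from -0.1124 to 0.065 (Mog, CPZ against CTL), -0.1682 to 0.0092 (Mog, CPZ against RCV), -0.0177 to 0.1097 (Mog, RCV against CTL), -0.0748 to 0.0127 (Mobp, RCV against CTL) and -0.0153 to 0.0898 (Cldn11, RCV against CTL), and that of Mobp in RCV against CTL was 0.0249 against the mean of the other members. The median share remaining ranged from -0.2033 to 0.0015. The causes were not tested.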
